A study of Mus musculus with 6 samples.

Results

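A set of 10 endoplasmic reticulum (ER) stress genes were followed through a knockdown of Mettl3 in podocytes: Ern1, Xbp1, Edem1, Sel1l, Atf6, Hspa5, Hsp90b1, Eif2ak3, Atf4 and Ddit3. They were taken by gene name, as sensors, factors and direct targets of the stress arms, and Xbp1 had been seen to be higher in knockdown when the set was drawn up. All 10 were found among the 9120 genes of the expression table, each once, and all 10 passed the filter on low values. MPC5 is a conditionally immortalised mouse podocyte line, podocytes being the epithelial cells that wrap the capillaries of the kidney's filter. All 6 libraries came from MPC5 cells that had differentiated for 7 days without interferon gamma, were held in high glucose (30 mM) and were exposed for 6 h to transfected small interfering RNA (siRNA). The siRNA was scrambled in the 3 control libraries and directed against Mettl3, the m6A methyltransferase gene, in the 3 knockdown libraries. The model is therefore 1 cell line with a transient knockdown, and no normal-glucose libraries were analysed here.

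The unfolded protein response senses misfolded protein in the ER through separate membrane proteins. IRE1 (gene Ern1) cuts an intron out of the Xbp1 mRNA so that the active transcription factor XBP1 is made. ATF6 travels to the Golgi and is cleaved there into a transcription factor, and PERK (gene Eif2ak3) phosphorylates eIF2 alpha, which slows translation in general but favours translation of ATF4. ATF4 and its target CHOP (gene Ddit3) also serve the wider integrated stress response, which other kinases can start. Podocytes make large amounts of membrane and matrix protein, and ER stress has been studied in them as a part of diabetic kidney injury.

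The IRE1 cut site in Xbp1 is shown first, because expression per gene cannot tell the cut from the uncut mRNA. In the GENCODE M21 transcript Xbp1-201 (gene on chromosome 11, plus strand), a pair of loops spelled CNGCAGC frames 26 bases, from base 815 to base 840 of the transcript. The 26 bases are in capitals and 15 bases are given on each side.
Xbp1-201: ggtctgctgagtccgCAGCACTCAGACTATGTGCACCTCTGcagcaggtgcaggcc
Removal of those bases lengthened the longest reading frame of this transcript from 267 to 371 codons. The Xbp1 values below sum both forms, so they measure the amount of Xbp1 mRNA and not its splicing.

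Promoter windows of 300 bases (250 before to 50 after the RefSeq start, GRCm38.p6) were matched for 9 of the 10 genes, all but Atf6. They were searched on both strands for 4 elements of stress-responsive promoters: the ER stress response element ERSE (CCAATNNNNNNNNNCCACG), ERSE-II, the unfolded protein response element UPRE (TGACGTGG) and the C/EBP-ATF response element CARE (TGATGNAA). With positions counted from the start, Hspa5 held 1 ERSE match at -65 to -47. Hsp90b1 held 2, one at -212 to -194 and one, on the other strand, at -107 to -89. These windows are printed because both genes encode ER chaperones with this element, while their levels varied differently over the libraries, as described below. Capitals mark the ERSE matches, which overlap no other element searched.
Hspa5, chr2:34771840-34772139, plus strand: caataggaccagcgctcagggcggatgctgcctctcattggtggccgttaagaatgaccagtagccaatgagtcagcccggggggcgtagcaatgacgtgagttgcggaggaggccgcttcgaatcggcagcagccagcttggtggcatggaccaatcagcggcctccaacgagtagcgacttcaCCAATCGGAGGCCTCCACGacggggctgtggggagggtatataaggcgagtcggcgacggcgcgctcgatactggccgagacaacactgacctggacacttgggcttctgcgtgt
Hsp90b1, chr10:86705395-86705694, minus strand: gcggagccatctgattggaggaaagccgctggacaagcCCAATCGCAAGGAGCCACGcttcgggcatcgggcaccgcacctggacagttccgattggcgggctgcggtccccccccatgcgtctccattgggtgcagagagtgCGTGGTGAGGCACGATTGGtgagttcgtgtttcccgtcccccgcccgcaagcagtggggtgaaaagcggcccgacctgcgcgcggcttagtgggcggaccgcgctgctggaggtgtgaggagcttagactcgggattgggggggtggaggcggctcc
ERSE was found in 2 of the 9 windows (22.2% of genes), against 0.137% of the 27025 genes with a window. The set was made of known factors and targets of the stress arms, so this share describes the set and is no independent evidence. None of the 9 held ERSE-II, UPRE or CARE in this window, which says only that these letters are not in these 300 bases.

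Of the IRE1 arm, the transcription factor gene Xbp1 (chromosome 11, 5520659 to 5525893, coordinates on GRCm38) was the one member with more mRNA in every knockdown library than in any control. Values are the deposited FPKM, which scale fragments by transcript length and by library size. In replicates 1, 2 and 3, Xbp1 stood at 30.4, 28.7 and 35.0 FPKM among controls and at 43.5, 41.8 and 48.1 FPKM among knockdowns. The groups did not overlap, and the lowest knockdown value stood above the highest control value. The means were 31.4 ± 3.3 (SD, n = 3) and 44.5 ± 3.3 FPKM (SD, n = 3), 41.7% higher in knockdown, with a difference of 0.49 on the log2(FPKM + 1) scale (SE 0.10). No test is given for it or for the other 9 genes between knockdown and control, since Xbp1 was noted for this very difference. In bulk RNA, a change in the share of cells that express a gene and a change of RNA per cell cannot be told apart.

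The sensor gene Ern1 (chromosome 11, 106394650 to 106487852) showed the opposite order. It measured 5.50, 5.99 and 5.27 FPKM in controls and 4.91, 4.57 and 5.11 FPKM in knockdown, so every knockdown library lay below every control. Its means were 5.59 ± 0.37 and 4.86 ± 0.28 FPKM (SD, n = 3 each), 12.9% lower in knockdown (log2 difference -0.17, SE 0.10). The ratio of Xbp1 to Ern1 within a library, both per length, ran from 4.80 to 6.65 in controls and from 8.84 to 9.42 in knockdown. This separation follows from the values of both genes already given and is no further result.

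Edem1 and Sel1l act in ER-associated degradation, which returns misfolded protein to the cytosol for destruction. Sel1l (chromosome 12, 91806043 to 91849157), the adaptor of the ubiquitin ligase SYVN1, measured 25.5, 26.7 and 27.5 FPKM in controls and 23.0, 24.9 and 24.6 FPKM in knockdown. These groups did not overlap either, with means of 26.6 ± 0.96 and 24.2 ± 1.0 FPKM (SD, n = 3 each), 8.93% lower in knockdown. Edem1 (chromosome 6, 108828641 to 108859356), a mannosidase-like protein that picks glycoproteins for degradation and a target of XBP1, measured 40.7, 43.0 and 59.1 FPKM in controls and 37.3, 35.4 and 58.8 FPKM in knockdown. Here replicate 3 was the high library of both groups, and the groups overlapped.

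In the ATF6 arm, knockdown and control overlapped in all 3 genes. Atf6 (chromosome 1, 170704674 to 170867771), sensor and factor in one, measured 4.88, 5.03 and 3.50 FPKM in controls and 4.01, 4.04 and 3.46 FPKM in knockdown. Replicate 3 was lowest in both groups. Hspa5 (chromosome 2, 34771970 to 34777547), the chaperone BiP that holds the sensors inactive, measured 72.3, 70.8 and 70.8 FPKM in controls and 67.1, 71.9 and 65.6 FPKM in knockdown. It was the steadiest member over the libraries, with 71.3 ± 0.85 against 68.2 ± 3.3 FPKM (SD, n = 3 each). Hsp90b1 (chromosome 10, 86690209 to 86705509), the chaperone GRP94, measured 268, 256 and 197 FPKM in controls and 257, 254 and 201 FPKM in knockdown, again with replicate 3 lowest in both groups.

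The PERK arm showed no separation of knockdown from control, and its members followed the replicate instead. The kinase gene Eif2ak3 (chromosome 6, 70844515 to 70905245) measured 1.93, 2.80 and 3.16 FPKM in controls and 2.36, 2.42 and 3.20 FPKM in knockdown. Atf4 (chromosome 15, 80255184 to 80257540) measured 129, 135 and 241 FPKM in controls and 119, 123 and 226 FPKM in knockdown. Ddit3 (chromosome 10, 127290774 to 127296288), a pro-apoptotic factor in prolonged stress, measured 6.46, 7.10 and 10.6 FPKM in controls and 5.51, 7.46 and 10.0 FPKM in knockdown. For each of these 3 genes both replicate 3 libraries exceeded all 4 others. Over all tested genes, the replicate 3 libraries did not overlap the others in 43.1%, in either direction.

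**Figure D1:**
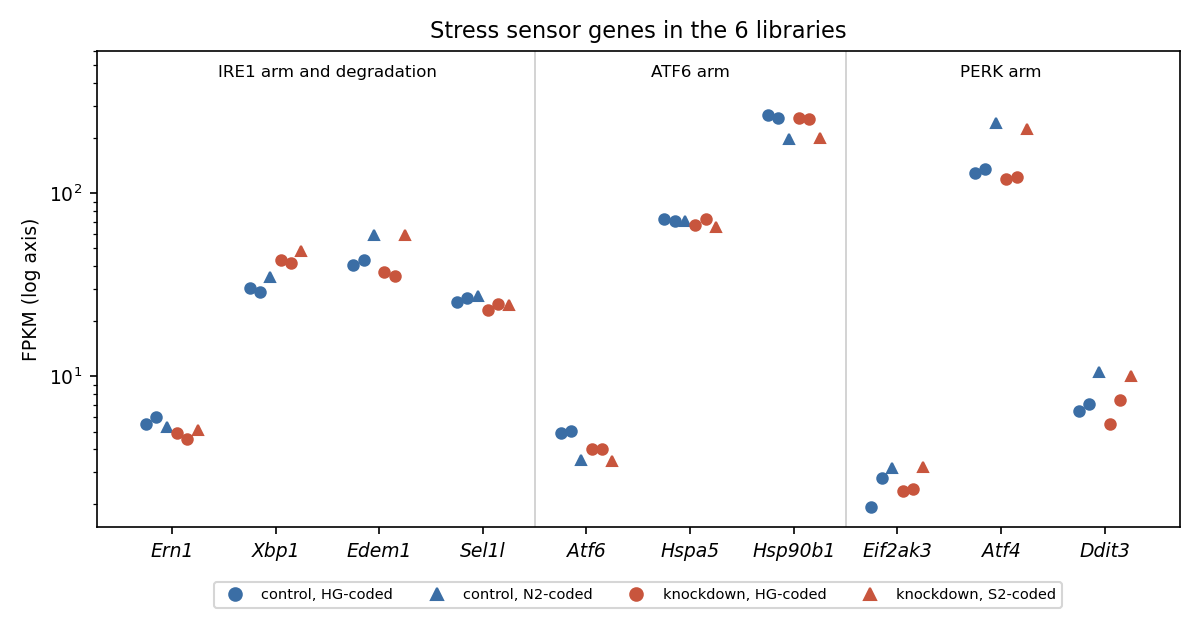
FPKM (log axis) of the 10 genes in each of the 6 libraries, grouped by stress arm; colours mark control and knockdown, circles the HG-coded libraries and triangles the N2- and S2-coded libraries. Xbp1 separates the groups, from 28.7 to 35.0 FPKM in controls and from 41.8 to 48.1 FPKM in knockdown, while Atf4, Ddit3 and Edem1 separate the triangles from the circles.

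Over the 10 genes, 2 had a log2 difference above 0 and 8 below 0 between knockdown and control, with a median of -0.09, against a median of 0.02 over all 8047 genes tested. Groups did not overlap in 3 of the 10 (Xbp1 higher, Ern1 and Sel1l lower), where 10.1% of all tested genes did not overlap (6.06% higher and 4.01% lower in knockdown). By limma with Benjamini-Hochberg adjustment, 0 of the 8047 genes passed the threshold of 0.05 between knockdown and control (0%), and 366 (4.55%) had an unadjusted p under 0.05. Since the contrast was used in choosing the set, nothing is read from these counts. Mettl3 itself measured 5.99 ± 0.31 FPKM in controls and 3.81 ± 0.11 FPKM in knockdown (SD, n = 3 each), 36.3% lower. Although it was the target of the siRNA, it did not pass either (limma adjusted p = 0.799).

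The knockdown difference of each gene was also taken within each form of library code, because the titles give replicate 3 of both groups codes of another form (N2 and S2) than the other 4 libraries (HG). Xbp1 was 44.2% higher in knockdown within the 4 HG-coded libraries and 37.5% higher in the S2 library than in the N2 library. Sel1l differed by -8.21% and -10.3% in the same comparisons. Ern1, in contrast, was 17.5% lower within the HG-coded libraries and 2.97% lower in the S2 library. Atf6 was 18.9% lower within the HG-coded libraries and 1.02% lower in the S2 library. The other 6 genes differed by at most 13.2% in either comparison, among them Edem1 (-13.2% and -0.356%) and Atf4 (-8.47% and -6.38%). Within the HG-coded libraries alone, the groups did not overlap for Xbp1, Ern1, Sel1l, Atf6, Edem1 and Atf4. The share of all tested genes so separated was not counted, so nothing is read from this. With 1 N2 and 1 S2 library the second comparison has no replicate check, and the difference between the forms was not tested.

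**Figure D2:**
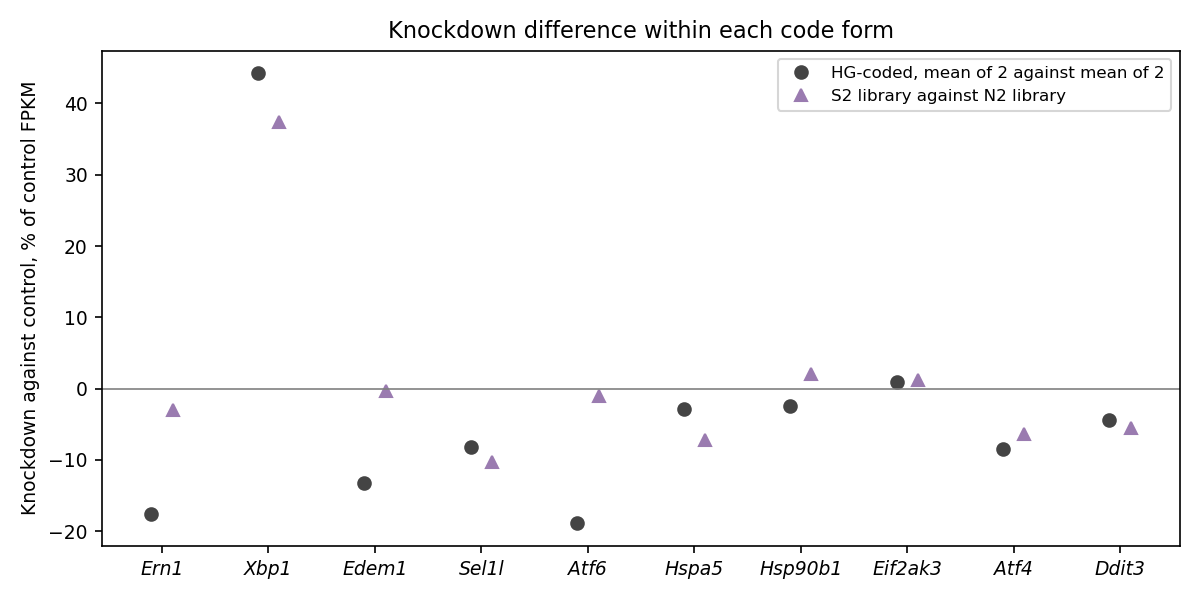
Knockdown against control, as % of control FPKM, for each of the 10 genes within the 4 HG-coded libraries (circles, mean of 2 against mean of 2) and between the S2 and N2 libraries (triangles). Xbp1 stands at 44.2% and 37.5%, and every other gene lies between -18.9% and 2.01%.

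Levels of the 10 genes could be ordered, since FPKM is per length. In controls the order ran Hsp90b1 (240 ± 38 FPKM), Atf4 (168 ± 63), Hspa5 (71.3 ± 0.85), Edem1 (47.6 ± 10), Xbp1 (31.4 ± 3.3), Sel1l (26.6 ± 0.96), Ddit3 (8.05 ± 2.2), Ern1 (5.59 ± 0.37), Atf6 (4.47 ± 0.85) and Eif2ak3 (2.63 ± 0.63; SD, n = 3 each). The 3 sensors thus took the last 3 places and the chaperones and Atf4 the first 3. Only Hsp90b1 and Atf4 overlapped as neighbours in controls, through the N2 library. Among all 9120 genes, Hsp90b1 stood at percentile 99.1 of control means, Atf4 at 98.5 and Hspa5 at 95.4, against 50.6 for Ern1, 44.8 for Atf6 and 32.0 for Eif2ak3. In knockdown the order was the same except that Xbp1 (44.5 ± 3.3 FPKM) and Edem1 (43.9 ± 13 FPKM) changed places and overlapped.

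The stated rule for the 10 genes did not use the code form, although the set was drawn up with earlier results of these data known. By code form, members of more than one stress arm differed. The 2 libraries with N2 and S2 codes (1 control, 1 knockdown) were compared with the 4 HG-coded libraries in a limma fit with the knockdown as a term. The sources used here do not say what the codes stand for. Of the 10 genes, 4 passed (3 higher and 1 lower in the N2 and S2 libraries), where 18.8% of all 8047 genes passed (6.23% higher and 12.6% lower). Over all genes the share of calls that were higher depends on the scaling: 501 were higher and 1012 lower as deposited, and 734 higher and 685 lower with libraries scaled to the same median. Libraries of the 2 forms did not overlap in 6 of the 10 genes, against 43.1% of all tested genes.

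Atf4 had the largest difference of the 10. It averaged 127 ± 7.0 FPKM in the HG-coded libraries (SD, n = 4) against 241 and 226 FPKM in the N2 and S2 libraries, a log2 difference of 0.88 (SE 0.04, limma adjusted p = 0.000465). The ratio was 1.82 within controls and 1.86 within knockdown, so it was close in both groups. Edem1 was higher in the same libraries, at 59.1 and 58.8 FPKM against 39.1 ± 3.4 FPKM (SD, n = 4; log2 difference 0.58, SE 0.07, limma adjusted p = 0.00371). Ddit3 was higher too, at 10.6 and 10.0 FPKM against 6.63 ± 0.85 FPKM (SD, n = 4; log2 difference 0.57, SE 0.12, limma adjusted p = 0.0235). The Ddit3 call was lost without control replicate 1 (limma adjusted p = 0.0555), without control replicate 3 (0.157) and without knockdown replicate 3 (0.151), although the log2 difference remained between 0.49 and 0.65 whichever library was left out.

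The 3 genes lie in different places of the response, Atf4 and Ddit3 in the PERK arm and Edem1 downstream of XBP1. Hsp90b1 went the other way, with 197 and 201 FPKM in the N2 and S2 libraries against 259 ± 6.3 FPKM in the HG-coded ones (SD, n = 4; log2 difference -0.38, SE 0.04, limma adjusted p = 0.00374). Without control replicate 3 its adjusted p was 0.0503, with a log2 difference of -0.35. Hspa5, the other gene with an ERSE match in the window printed above, measured 70.8 and 65.6 against 70.5 ± 2.3 FPKM and did not pass (log2 difference -0.05, SE 0.05, limma adjusted p = 0.566), and its sign turned to 0.03 with libraries scaled to the same median. Within a library, Hsp90b1 stood at 3.54 to 3.84 times Hspa5 in the HG-coded libraries and at 2.79 and 3.06 times in the N2 and S2 libraries.

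The remaining members did not pass. Xbp1 was near the threshold (log2 difference 0.20, SE 0.06, limma adjusted p = 0.0535) and passed with a filter at 5 FPKM (0.0429) or with libraries scaled to the same median (0.0229). Its ratio was 1.18 within controls and 1.13 within knockdown. Atf6 was at 3.50 and 3.46 FPKM in the N2 and S2 libraries, below all HG-coded libraries (4.49 ± 0.54 FPKM, SD, n = 4; limma adjusted p = 0.0863), and Eif2ak3 was at 3.16 and 3.20 FPKM, above all of them (2.38 ± 0.36 FPKM, SD, n = 4; limma adjusted p = 0.144). Sel1l (limma adjusted p = 0.580) and Ern1 (0.965) overlapped between the forms, and Ern1 had a log2 difference of -0.01 as deposited and 0.07 with libraries scaled to the same median.

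**Figure D3:**
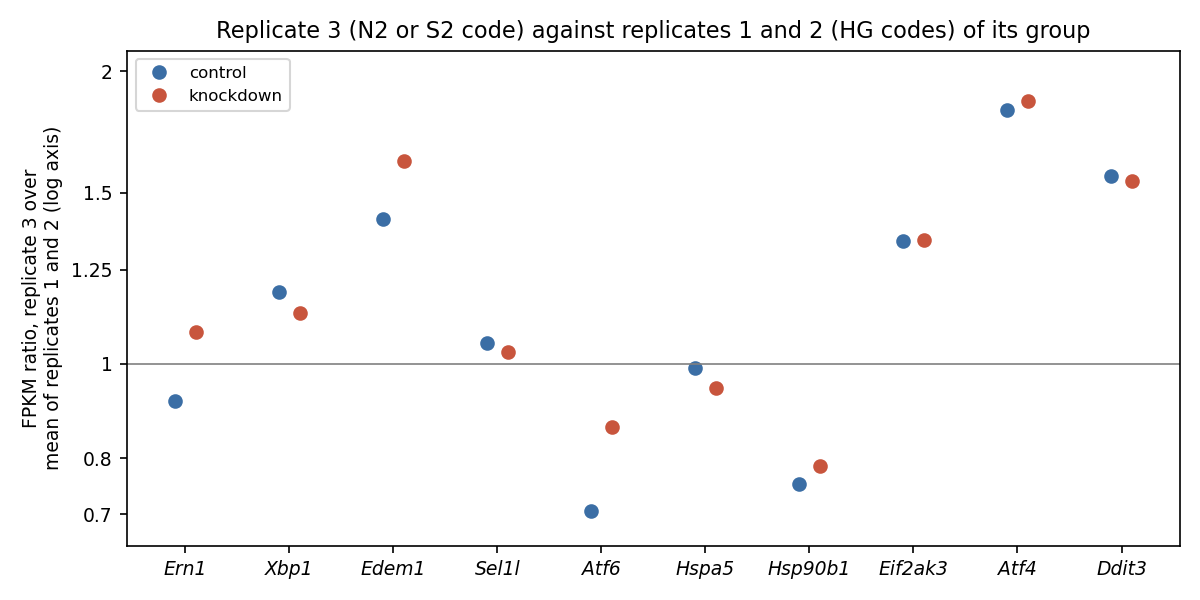
FPKM of replicate 3 over the mean of replicates 1 and 2 (log axis), for each of the 10 genes, within controls (N2 library over HG-coded) and within knockdown (S2 library over HG-coded). Atf4 lies at 1.82 and 1.86, Ddit3 at 1.56 and 1.54 and Edem1 at 1.41 and 1.62, while Hsp90b1 lies at 0.752 and 0.786.

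Marker genes of another cell type also differed between these libraries. The 5 mesangial or fibroblast markers with values (of 6 listed) summed to 3203 and 3375 FPKM in the N2 and S2 libraries and to between 1518 and 2004 FPKM in the HG-coded ones. Nearly all of the sum was the collagen gene Col1a1, at 3113 and 3285 FPKM against 1464 to 1951 FPKM, and Acta2, a smooth muscle actin gene, was also higher, at 56.8 and 58.8 against 14.5 to 17.3 FPKM. The receptor gene Pdgfrb lay the other way, at 30.7 and 28.9 against 34.0 to 38.5 FPKM, and Pdgfra and Des overlapped between the forms. The 6 podocyte markers with values (of 14 listed) summed to 140 FPKM in each of the N2 and S2 libraries and to between 142 and 154 FPKM elsewhere. That sum is mostly Actn4, which overlapped between the forms, and it hides lower values of Kirrel (15.8 and 13.6 against 20.6 to 22.2 FPKM) and of Cd2ap (11.5 and 13 against 13.6 to 15.4 FPKM). Among the podocyte markers Actn4 was above 100 FPKM in every library, Wt1 and Synpo were below 1.3 FPKM, and Nphs1 and Podxl were not analysed here. Of the endothelial and tubule markers only Flt1 and Aqp1 had values, at most 0.819 and 1.53 FPKM. Whether these shifts have a part in the differences above was not tested.

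Overlapping gene models limit a few values, since the sources used here do not say whether strand was used to assign reads. Ddit3 overlaps the 3′ end of Mars on the other strand, and GENCODE M21 also has a second model named Ddit3 within it on the same strand. Mars measured 14.4 ± 1.6 FPKM in the HG-coded libraries (SD, n = 4) and 12.1 and 12.3 FPKM in the N2 and S2 libraries (limma adjusted p = 0.179). Whether reads of either overlapping model have a part in the Ddit3 values was not tested. Hsp90b1 overlaps a transcribed pseudogene on the other strand and short noncoding models on its own.

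Other genes of the pathways were described by 4 lists without the 10 members. Between knockdown and control, 0 of their 103 tested genes passed by limma. An unadjusted limma p under 0.05 was seen in 4, beside 4.55% of all tested genes. Groups did not overlap in 5 that were higher and 6 that were lower in knockdown, beside 6.06% and 4.01% of all tested genes. The genes named below are given for their values, and nothing is read from these counts. The IRE1 and XBP1 list (ER translocation, signal peptidase and folding genes that XBP1 serves) had 7 genes above 0 and 12 below, with a median log2 difference of -0.02. Dnajb11, an ER co-chaperone of BiP, measured 40.7 ± 1.85 FPKM in controls and 47.5 ± 3.6 FPKM in knockdown without overlap, and Rtcb, the ligase that rejoins cut Xbp1 mRNA, 51.9 ± 1.3 and 56.1 ± 2.4 FPKM (SD, n = 3 each). Sec31a, a COPII coat gene, measured 17.1 ± 0.49 and 18.6 ± 1.6 FPKM, and the signal peptidase gene Spcs2 16.6 ± 6.5 and 12.1 ± 7.2 FPKM. Dnajb9, a co-chaperone gene widely used to read XBP1 activity, measured 12.1 ± 1.7 and 11.5 ± 3.3 FPKM and so did not share the separation of Xbp1.

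In the ATF6 list (proteases, related factors and chaperone targets) 10 log2 differences lay above 0 and 12 below (median -0.003). P4hb, the protein disulfide isomerase gene, had the smallest unadjusted p of the lists (0.0224) with 245 ± 16 FPKM in controls and 175 ± 47 FPKM in knockdown (limma adjusted p = 0.998). Ppib, an ER proline isomerase gene, measured 91.6 ± 6.7 and 74.6 ± 11 FPKM, Txndc5, a disulfide isomerase gene, 32.8 ± 1.7 and 30.1 ± 0.82 FPKM, and Creb3, a factor cleaved like ATF6, 11.2 ± 0.51 and 13.2 ± 0.50 FPKM. The protease gene Mbtps1, whose product makes the first cut in ATF6, measured 26.5 ± 0.395 and 28.6 ± 0.43 FPKM without overlap, and Mbtps2, which makes the next cut, 4.05 ± 0.24 and 4.29 ± 0.13 FPKM. Groups did not overlap in 2 genes of this list that were higher in knockdown (Creb3 and Mbtps1) and in 2 that were lower (P4hb and Txndc5). Among the targets that overlapped were Hyou1 at 31.2 ± 3.7 and 33.2 ± 3.6 FPKM, Sdf2l1 at 12.7 ± 2.0 and 12.8 ± 3.1 FPKM, and Creld2 at 1.93 ± 0.48 and 1.65 ± 0.31 FPKM.

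The degradation list had 10 genes above 0 and 13 below between knockdown and control (median -0.04). Its smallest unadjusted p-values, none of them past 0.05, belonged to Faf2 (12.3 ± 0.09 and 10.8 ± 0.55 FPKM), the channel gene Derl2 (12.7 ± 1.7 and 10.8 ± 0.58 FPKM), the folding sensor gene Uggt1 (26.2 ± 0.44 and 23.9 ± 1.1 FPKM) and the ubiquitin-conjugating enzyme gene Ube2j2 (17.9 ± 3.3 and 15.1 ± 0.26 FPKM). Of these, Faf2 and Uggt1 were lower in knockdown without overlap. Syvn1, the ligase that Sel1l serves, measured 9.12 ± 1.1 and 9.15 ± 0.76 FPKM. Herpud1, a stress-induced ligase partner, stood at 39.0 FPKM in the N2 library and between 19.8 and 24.3 FPKM in the other 5.

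The PERK and integrated stress list had 21 log2 differences above 0 and 18 below it between knockdown and control (median 0.01). Its 4 smallest unadjusted p-values were those of Eif2b2, Eif2b5, Aars and Cth, from 0.0693 to 0.132. Eif2b2 and Eif2b5 encode subunits of the eIF2 exchange factor and measured 19.2 ± 1.2 against 23.1 ± 3.1 FPKM and 8.57 ± 1.5 against 10.5 ± 0.87 FPKM. Aars, an alanyl-tRNA synthetase gene, measured 22.9 ± 1.1 and 20.3 ± 1.6 FPKM, and Cth, a cysteine synthesis gene, 2.49 ± 0.29 and 3.27 ± 0.83 FPKM (SD, n = 3 each). Groups did not overlap for Eif2b5, higher in knockdown, and for Aars, lower in knockdown. The amino acid enzyme gene Asns measured 27.5 ± 10 and 27.8 ± 11 FPKM. Ppp1r15a, Atf3 and Trib3, common markers of this arm, were not analysed here.

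By code form, in contrast, the PERK and integrated stress list held many calls. Of its 39 tested genes 13 were higher (33.3%) and 2 lower (5.13%) in the N2 and S2 libraries, beside 6.23% and 12.6% of all genes, and its median log2 difference was 0.24, beside -0.06 over all genes. The ATF6 list had 4 of 22 higher and 3 lower (median -0.03), the IRE1 and XBP1 list 2 of 19 higher and 1 lower (0.12), and the degradation list 2 of 23 higher and 2 lower (0.06). The list counts are descriptions, since no test compared the lists. The count of 13 rests on both libraries of that form: it was 2 without control replicate 3 and 2 without knockdown replicate 3.

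**Figure D4:**
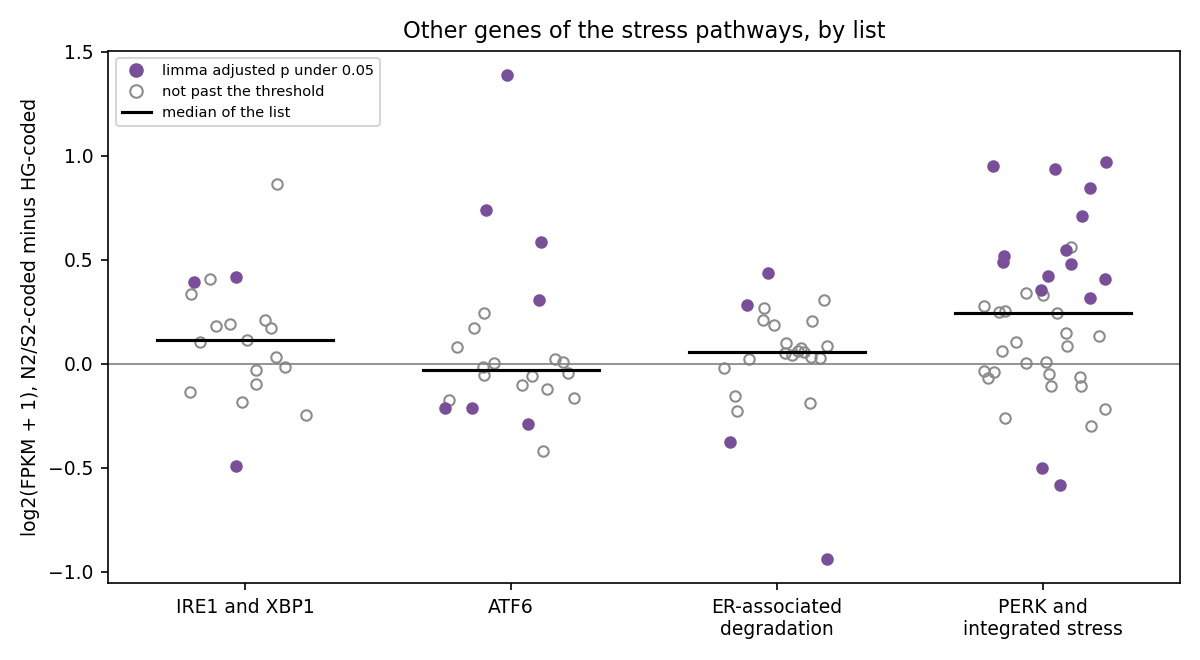
Difference of log2(FPKM + 1) between N2/S2-coded and HG-coded libraries for each tested gene of the 4 lists, with filled points past a limma adjusted p of 0.05 and bars at the list medians. The PERK and integrated stress list has 13 filled points above 0 and 2 below, and its median lies at 0.24.

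Among the 13 higher genes were genes of amino acid synthesis and transport that are known targets of ATF4. Asns, asparagine synthetase, measured 38.8 and 40.4 FPKM there against 21.7 ± 2.25 FPKM in the HG-coded libraries (SD, n = 4; limma adjusted p = 0.00422). Pycr1, a proline synthesis gene, measured 5.21 and 5.0 against 2.19 ± 0.11 FPKM (0.00285), Slc7a5, a transporter of large neutral amino acids, 20.7 and 17.4 against 9.42 ± 1.5 FPKM (0.00574), and Slc3a2, its partner chain, 14.7 and 15.3 against 10.4 ± 0.73 FPKM (limma adjusted p = 0.0122). Chac1, a glutathione-degrading enzyme gene, measured 13.8 and 14.4 against 6.77 ± 0.97 FPKM (limma adjusted p = 0.00585), and Ddit4, an inhibitor of mTORC1 signalling, 32.6 and 25.2 against 17.3 ± 2.7 FPKM (0.00291). The 2 genes that were lower were the transcription factor gene Cebpb, at 105 and 95.4 against 151 ± 12 FPKM (limma adjusted p = 0.00368), and the ER oxidase gene Ero1l, at 4.28 and 3.73 against 6.10 ± 0.63 FPKM (0.0127). The rest of the list did not pass, among them the listed targets Psat1 (limma adjusted p = 0.0951) and Cth (0.685).

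The CARE element was found in the promoter windows of 11 of the 40 list genes with a window (27.5%), against 2.34% of tested genes and 4.51% of all genes with one. The list was made of known ATF4 targets among others, so this share describes the list and is no independent evidence. Sequences are printed for the 5 genes with a match that were higher in the N2 and S2 libraries, with the match in capitals, in the direction of the gene, and 10 bases on each side.
Asns, chr6:7693215-7693242, minus strand: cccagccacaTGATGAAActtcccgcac
Chac1, chr2:119351039-119351066, plus strand: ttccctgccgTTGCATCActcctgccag
Pycr1, chr11:120643834-120643861, minus strand: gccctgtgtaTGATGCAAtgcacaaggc
Gars, chr6:55037961-55037988, plus strand: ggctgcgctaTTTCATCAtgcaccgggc
Vldlr, chr19:27216810-27216837, plus strand: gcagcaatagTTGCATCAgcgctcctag
Values were deposited for 9 of the 11 matched genes and 8 passed the filter, of which 5 were higher and 0 lower by limma. The 5 printed were thus chosen by their result. The other tested genes with a match did not pass: Aars (log2 difference 0.13, limma adjusted p = 0.211), Nupr1 (0.56, 0.167) and Yars (-0.07, 0.713). The glycyl-tRNA synthetase gene Gars measured 93.9 and 99.6 against 77.6 ± 5.1 FPKM (SD, n = 4; limma adjusted p = 0.00868) and the lipoprotein receptor gene Vldlr 17.0 and 19.1 against 13.9 ± 0.88 FPKM (0.0266). Over all 146 tested genes with a CARE match, 11% were higher and 7.53% lower, beside 6.23% and 12.6% of all tested genes, with a median log2 difference of -0.03.

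Among the genes of the other lists, which hold partners and degradation genes beside targets, calls by code form went in both directions. Creb3l1, a relative of ATF6 that acts on collagen genes, was higher at 124 and 116 against 71.3 ± 3.9 FPKM (SD, n = 4; limma adjusted p = 0.00236). The small heat shock protein gene Cryab was also higher, at 3.71 and 4.40 against 0.981 ± 0.54 FPKM (limma adjusted p = 0.00856). The ER lectin gene Calr was lower at 565 and 594 against 673 ± 42 FPKM (limma adjusted p = 0.0200), and Pdia4, a disulfide isomerase gene, was lower at 117 and 126 against 149 ± 6.3 FPKM (0.0226). Canx, the other ER lectin gene, did not pass at 348 and 335 against 384 ± 25 FPKM (limma adjusted p = 0.0633). The translocon gene Sec61a1 was higher at 63.0 and 62.0 against 46.6 ± 1.8 FPKM (limma adjusted p = 0.00574), as were the COPII gene Sec23b (0.0287) and the mannosidase-like gene Edem2, a relative of Edem1, at 27.4 and 30.7 against 21.2 ± 0.85 FPKM (limma adjusted p = 0.00962). The kinase gene Map3k5, which acts below IRE1, was lower (limma adjusted p = 0.0413), as were Nploc4, a cofactor of the p97 segregase (0.00931), and the ligase gene Rnf5 (0.0219). Of the 11 tested genes with an ERSE match, Hspa5 and Hsp90b1 included, 0 were higher and 3 lower (27.3%), beside 6.23% and 12.6% of all tested genes. These are counts for the deposited values, and the split over all genes depends on the scaling as given above.

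The 4 genes whose profile over the 6 libraries was nearest to that of Xbp1 came from other functions. Likeness was the root mean square difference between centred log2(FPKM + 1) values over the 6 libraries. It was taken among 6626 genes with a mean of at least 2 FPKM, with the members and predicted or unnamed models left out. Pccb, a mitochondrial propionyl-CoA carboxylase subunit gene, was nearest (0.0938), followed by Nosip (0.0962), the splicing factor gene Phf5a (0.0986) and Tmem160 (0.103), where the median gene was at 0.308. Pccb measured 6.57 ± 0.86 FPKM in controls and 8.77 ± 0.53 FPKM in knockdown, and Tmem160 20.7 ± 2.2 and 26.1 ± 1.8 FPKM (SD, n = 3 each). All 4 were higher in every knockdown library than in any control, as Xbp1 was, which is what the measure selects. None belongs to the 4 lists of stress genes described above. Those lists hold only 103 of the 8047 tested genes, so nothing is read from this.

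**Figure D5:**
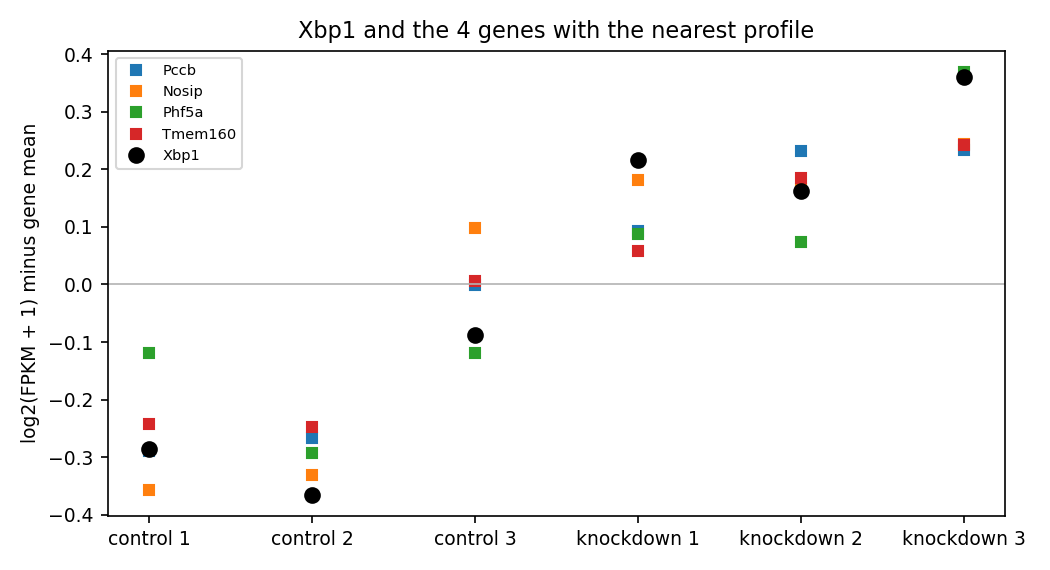
Centred log2(FPKM + 1) of Xbp1 (large circles) and of the 4 genes with the nearest profile (squares) in each of the 6 libraries. For each of the 5 genes the 3 knockdown libraries stand above the 3 controls.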

How the data were processed

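The single table holds gene-level FPKM for 6 libraries, the unit that the file headers give, as the authors deposited them. Per the submitters' processing notes, the tools were StringTie 1.2.2, HISAT2 2.0.4, cutadapt 1.17, R 2.10.0 and FastQC 0.11.7, with no role or order given. The notes name build mm9, but 8379 of the 9112 genes matched by identifier to GENCODE M21 had its exact span on GRCm38, so coordinates are given as GRCm38. At most 20.7% of the 150 lowest values per library came out as whole reads (tolerance 0.05 of a read), so counts were not recovered and the depth is unknown. Library sums of FPKM ran from 173721 to 176526. A library listed 74 to 118 genes at 0, and every gene listed has a mean of at least 0.501 FPKM in a group.

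Genes with at least 1 FPKM in 3 or more libraries (8047) were fitted as log2(FPKM + 1) with limma 3.58.1 in R 4.3.3 (intensity trend, two-sided, Benjamini-Hochberg over all 8047 genes, threshold 0.05), first by knockdown alone and then with the code form as a second term. The log2(FPKM + 1) scale understates changes of low genes. The design text calls the replicates biological, but nothing says whether cultures were separate, so p-values may measure technical spread. The fit was tested on simulated data, which held no difference between code forms in the knockdown runs. That run therefore does not measure how well the knockdown fit finds changes in these libraries. The alternatives were another pseudocount, filter, scaling or variance model, a replicate block, the code form as a covariate, HG-coded libraries alone, and each library left out.

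Libraries of equal replicate number deviated together (correlations across genes of 0.23, 0.20 and 0.56), from the labels' numbers. Control 2 and knockdown 1 did so as well (0.26), and so did control 1 and knockdown 2 (0.23). Only for replicate 3 did the pair of equal number stand above every unequal pair.

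Named genes are the members, Mettl3, 16 canonical targets where they have values, in each list the 4 genes with the smallest p by knockdown and the 3 by code form, and the 4 profiles nearest to Xbp1. Gars, Vldlr, Slc7a5, Slc3a2, Ero1l, Mars, Nupr1, Yars, Psat1, the marker genes and the genes called by knockdown under other settings fall outside this rule: they were picked with their values in view. The members and lists were chosen with earlier results of these data known. Promoter windows are from RefSeq (GRCm38.p6) and transcripts from GENCODE M21.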

Additional observations from a re-analysis of the deposited data

Results flagged for a closer look

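In 13 of the genes named here, 5 of them taken by the naming rule, both knockdown libraries with HG codes lay on one side of both HG-coded controls while the S2 library lay on the other side of the N2 library; the difference between the forms was not tested. Dnajb9 differed by -16.2% in knockdown within the HG-coded libraries and was 14.4% higher in the S2 library than in the N2 library. Pdia4 differed by -6.36% and 7.84% in these comparisons. Ube2j2 differed by -23.4% and 7.32%, and Eif2b2 by 33.3% and -2.87%. Spcs2 differed by -47.9% and 4.23%, with 21.2 FPKM in control replicate 1 against 9.13 FPKM in control replicate 2. Among the genes outside that rule, Slc3a2 differed by -8.30% and 4.02%. Of the markers, Synpo differed by -57.3% and 13.4%, Pdgfra by -33.8% and 10.8%, and Flt1 by 52.1% and -27.8%, each at a few FPKM or less. Some of the genes called under one alternative crossed as well: Tagln2 differed by 83.1% and -5.56%, Lars2 by -89.6% and 35.9%, and Shisa5 by -97.7% and 24.9%. Plin2 was listed at 0 in both HG-coded controls and at 8.89 and 10.7 FPKM in the HG-coded knockdowns. It stood at 6.48 FPKM in the N2 library and at 0 in the S2 library (-100%). Plin2 and Tagln2 were called only within the HG-coded libraries, and Lars2 and Shisa5 only without knockdown replicate 3. Their crossing is therefore partly what that choice selects. Such a crossing was seen in 0 of the 10 members. The share of all tested genes with such a crossing was not counted, so nothing is read from these counts.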

How the results depend on the processing

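The knockdown difference of the 10 members moved by less than 1 SD between replicates in all 78 values from other settings and all 60 values without a library. For the 60 this was fixed in advance, since leaving out 1 of 3 libraries cannot move a difference that far. Several of the other settings leave the estimate itself unchanged, so stability is not read from these counts. The sign was not fixed for Edem1 (-0.36 to 0.03 over the fits without a library), Hsp90b1 (-0.15 to 0.10), Eif2ak3 (-0.13 to 0.12), Atf4 (-0.41 to 0.17) and Ddit3 (-0.26 to 0.12), while Xbp1 ran from 0.43 to 0.57 on the log2 scale, Ern1 from -0.20 to -0.12, Sel1l from -0.16 to -0.10, Atf6 from -0.30 to -0.09 and Hspa5 from -0.10 to -0.04. The limma count between knockdown and control was 0, also with the replicate block (pairing by replicate number), which changed no call. It was 2 within the HG-coded libraries (Plin2, Tagln2), 1 with a robust variance without trend (Lmbrd1), and 0 to 2 without a library: 2 without control replicate 2 (both models named Raver1) and 2 without knockdown replicate 3 (Lars2, Shisa5). No member or list gene was among these. The list medians without a library ran from -0.07 to 0.02 (IRE1 and XBP1), -0.028 to 0.045 (ATF6; 0.032 within the HG-coded libraries), -0.07 to -0.02 (degradation) and -0.04 to 0.10 (PERK and integrated stress). By code form, 343 to 1204 genes passed without a library (343 without control replicate 3, 362 without knockdown replicate 3, 923 without knockdown replicate 1), and 2 to 4 members (2, Edem1 and Atf4, without control replicate 3). The count of 13 higher integrated stress genes, a result added after seeing the data, ran from 2 to 12 without a library. Atf4 and Edem1 passed by code form under every alternative run. Sign changes by code form were seen in Ern1 (0.065 with scaling, 0.030 without control replicate 2, 0.091 without control replicate 3) and Hspa5 (0.025 with scaling), neither of which passed. Fewer libraries lower the power of each fit; other causes were not tested. The unknown depth limits what can be said of genes near 1 FPKM.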
